A study of Mus musculus with 7 samples.

Results

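Chromatin accessibility was examined at the ATP-binding cassette (ABC) transporter genes of mouse liver, in young and aged animals. The members were the 47 protein-coding genes of the GENCODE M21 annotation whose symbols name subfamilies Abca to Abcg, with Abcb4, Abcb11 and Abcc2 left out of the 50 that carry such a symbol. A region was taken as a member's when it overlapped the gene body or 2 kb on either side of it. By that rule 41 of the 47 genes held 154 of the 55680 accessible regions of the whole data set, on 17 chromosomes. Abca12, Abca13, Abca15, Abca16, Abcb5 and Abcc8 held none. The data came from an assay for transposase-accessible chromatin with sequencing (ATAC-seq), in which the Tn5 transposase cuts and tags open chromatin in isolated nuclei, so that a count measures how often a region was open. All animals were male C57BL/6N mice, and the labels name no treatment or transgene; the young group held 3 liver samples taken at 3 months of age and the aged group held 4 taken at 18 months. By the design text in GEO the 4 aged samples came from 3 animals, since a pair of lobules of 1 animal entered as separate samples. The study's methods count each as a biological replicate. The sources do not say which samples share an animal, so the p-values below may partly measure the spread within an animal. Nuclei came from unsorted liver tissue, and a smaller share of cells of a type cannot be told apart from less open chromatin per cell.

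ABC proteins are membrane machines that bind ATP on a pair of conserved cassettes and use it to move lipids, bile salts, drugs, peptides or metals across a membrane. In liver, members of the A and G subfamilies load sterols and phospholipids onto lipoproteins or into bile, members of the B and C subfamilies export drugs and conjugates, and members of the D subfamily carry fatty acids into peroxisomes. Subfamilies E and F kept the cassettes but lost the membrane part, and act on ribosomes.

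Total counts in regions ran from 5709327 to 25461110 in the young samples and from 4474652 to 11717992 in the aged samples, with young replicate 2 the deepest. ABC regions took a like share of all counts in every sample, 0.270% to 0.273% in young and 0.260% to 0.273% in aged liver. All 6 hepatocyte markers on the list (Alb, Ttr, Apoa2, Cps1 and Serpina1a among them) had a promoter region, with summed levels of 436 to 479 CPM (counts scaled to a library total of 1000000) in young and 510 to 596 CPM in aged liver, which did not overlap. Of the 6, 5 had a mean of 5 log2 CPM or more. At that level the median log2 fold change of aged over young was 0.25 over all regions, beside 0.28 over these 6 markers. Of the markers of other cells, 1 of 7 for Kupffer cells and macrophages, 0 of 7 for lymphocytes, 3 of 6 for sinusoidal endothelium, 2 of 5 for stellate cells and 3 of 5 for cholangiocytes had a promoter region. The summed stellate level was lower in every aged sample (11.9 to 19.0 CPM) than in any young one (20.9 to 24.0 CPM). Of its 2 genes Reln held 17.4 to 21.1 CPM in young and 9.10 to 15.3 CPM in aged samples, and Lrat overlapped between ages. The Kupffer, endothelial and cholangiocyte sums also overlapped, although the cholangiocyte gene Epcam was lower in every aged sample (1.57 to 2.67 CPM) than in any young one (3.33 to 4.38 CPM). The lymphocyte genes, Ptprc (CD45) included, had no promoter region, so that their level could not be given. No marker on the 6 lists passed the test by edgeR (adjusted p under 0.05), 4 were higher and 2 lower at an unadjusted p under 0.05, and DESeq2 called 1. Of all protein-coding genes, 27.3% were higher at that unadjusted p by edgeR and 11.9% were called more accessible by DESeq2. What part such cells had in the results below was not tested.

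The first question was how many of the 154 ABC regions differed between ages. Of these, 10 passed the test (edgeR quasi-likelihood test, Benjamini-Hochberg adjusted p under 0.05 over all 55680 regions), which is 6.49%, beside 5.74% of all regions, so that the share was near the background. Accessibility was higher in aged liver at 2 of them, the promoters of Abca8b and Abcb8, beside 2.44% of all regions, and lower at 8, beside 3.3%. The 8 regions that were less accessible lay in introns of Abcg2 (2 regions), Abcg5, Abcb9, Abca6 and Abcc9, just downstream of Abcf3, and at a start site near the end of Abcc6. At all 10 the aged samples lay entirely to one side of the young ones. This is not separate evidence, since the 10 were chosen by a test on the same values. At an unadjusted p under 0.05 there were 35 ABC regions, or 22.7%, beside 24.6% of all regions. The counts moved with single samples: without young replicate 1 the test called 0 regions more and 1 less accessible, without young replicate 2 it called 0 and 3, and without aged replicate 1 or 3 it called 0 and 5. They also moved with the scaling, to 1 more and 11 less with total counts, 7 and 9 with offsets by GC content, and 0 and 5 with offsets by mean level.

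**Figure D1:**
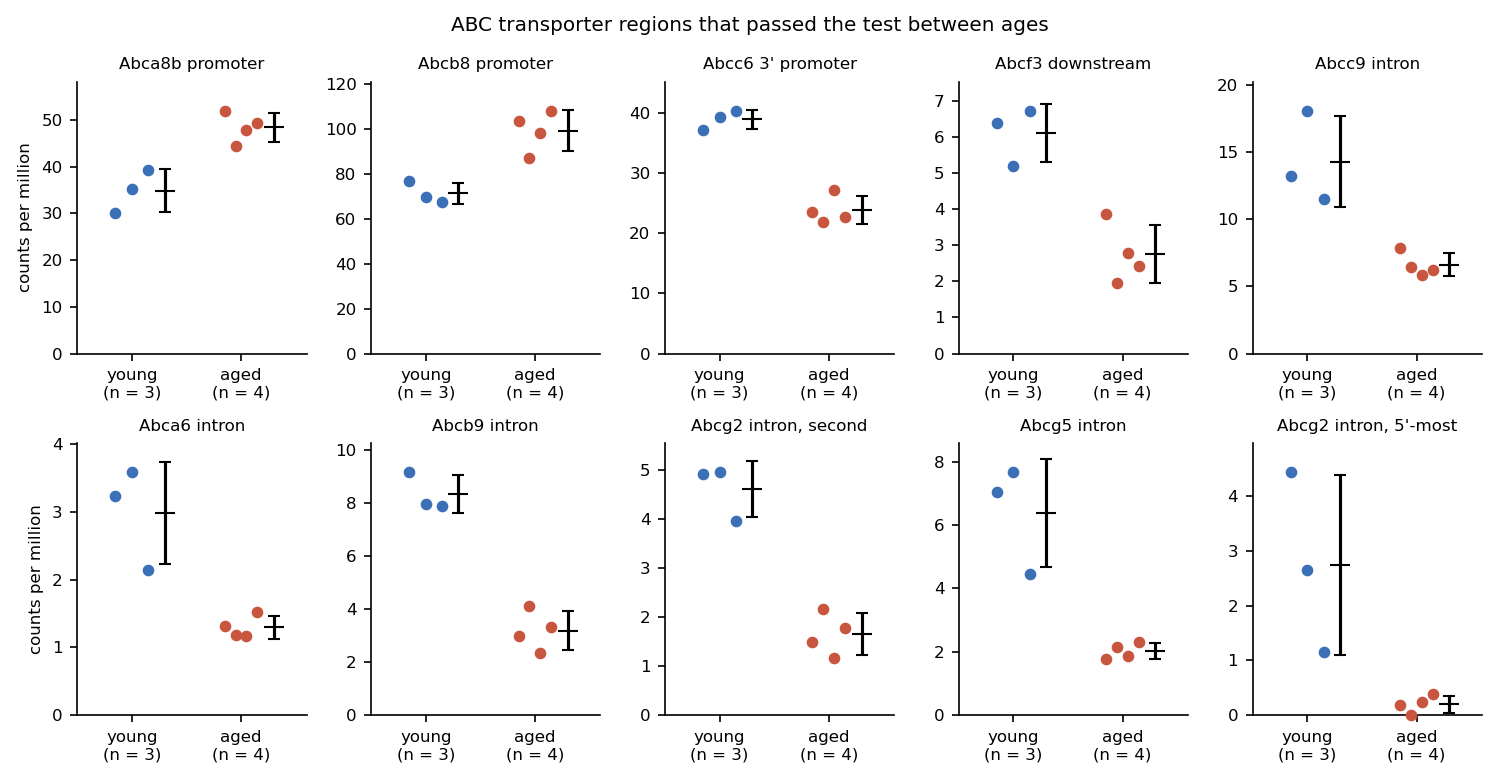
Level of the 10 ABC regions that passed the test, in CPM (vertical axes, from 0), in the 3 young and 4 aged samples. Each point is 1 sample, and the black bar is the mean with its SD. The first 2 panels are the promoters of Abca8b and Abcb8, which were higher in aged liver, and the other 8 panels show regions that were lower.

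The medians of the main promoter region of each gene and of regions outside any promoter lay on opposite sides of zero. A promoter region was taken as one within 200 bp of an annotated transcription start site (TSS) of the gene, and where a gene had several, as the one with the highest mean level. There were 36 such regions for 38 genes, because Abcg5 shared one with Abcg8 and Abca3 shared one with Abca17. The log2 fold change of aged over young was above 0 at 28 of the 36 (77.8%, beside 65.6% of the promoter regions of all protein-coding genes), with a median of 0.18 (beside 0.12). Outside the promoters of any gene it was above 0 at 36 of 107 ABC regions (33.6%, beside 41.0% of all regions outside promoters), with a median of -0.15 (beside -0.09). None of the 107 was called more accessible by edgeR (1 by DESeq2, and 5 at an unadjusted p under 0.05), beside 1.66% of all regions outside promoters, and 7 were called less accessible (6.54%, beside 3.78%). Start-site regions other than the 36 are in neither set. They include the region near the end of Abcc6 that fell, and some that lay above 0.

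The mean level over the promoter regions was 4.69 to 4.73 log2 CPM in the young samples and 4.76 to 4.83 in the aged ones. Over the regions outside promoters it was 3.05 to 3.08 log2 CPM in young and 2.80 to 2.89 in aged liver. The gap between the means was thus 1.64 to 1.66 in each young sample and 1.87 to 2.02 in each aged sample, and the ages did not overlap. Over all promoter regions of protein-coding genes and all regions outside promoters the same gap was 1.82 to 1.92 in young and 1.95 to 2.13 in aged samples, which also did not overlap.

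**Figure D2:**
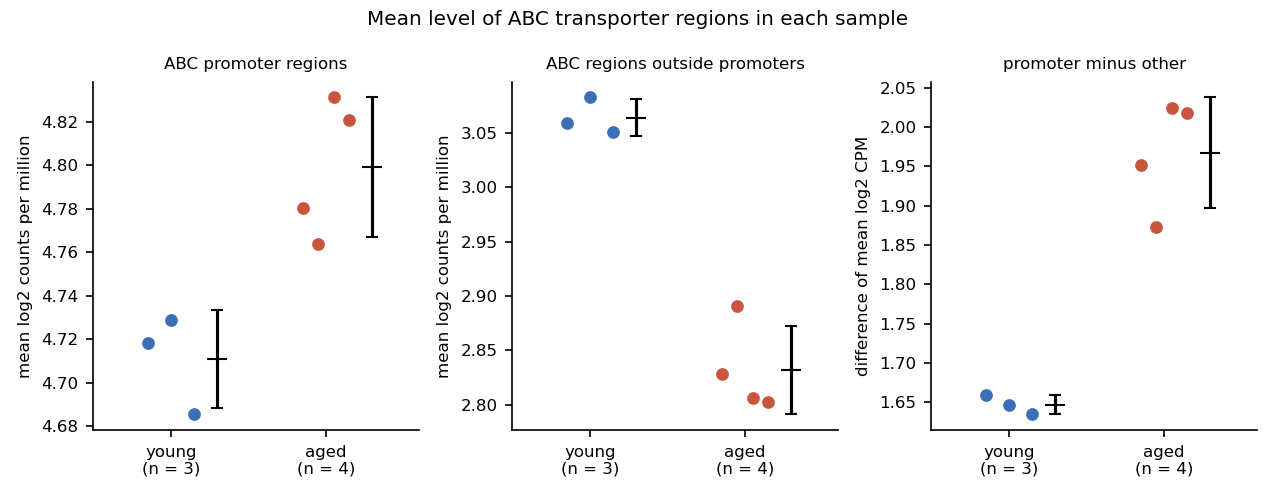
Mean log2 CPM over the 36 promoter regions of ABC genes (left), over the 107 ABC regions outside promoters (middle) and the difference of the means (right), for the 3 young and 4 aged samples. Points are samples, bars are mean and SD, and the vertical axes do not start at 0. Promoter means reached 4.69 to 4.73 in young and 4.76 to 4.83 in aged samples, and the differences did not overlap.

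The sign of the change went with the level of the region. All 23 ABC regions with a mean of 5 log2 CPM or more were above 0, with a median of 0.25, the same as over the 9123 regions of the data set at that level (0.25). Among the 29 ABC regions below 2 log2 CPM, 7 were above 0 and the median was -0.30 (-0.33 over the 12992 such regions). Across the 154 ABC regions the Spearman correlation of log2 fold change with mean level was 0.59, and across all regions 0.50; these regions share the same 7 libraries and are not independent. When the libraries were scaled as a function of mean level, the medians moved to 0.01 at ABC promoters and -0.02 outside them. The part that level or depth had in the difference between promoters and other regions was not tested further.

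**Figure D3:**
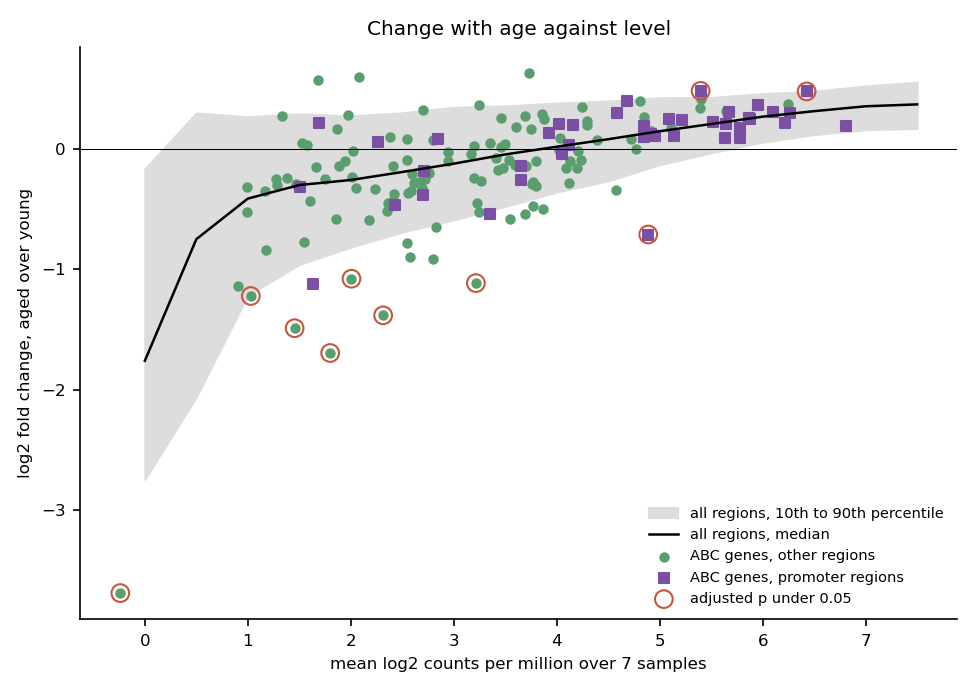
Log2 fold change of aged over young (vertical) against mean log2 CPM over the 7 samples (horizontal) for the 154 ABC regions, with promoter regions as squares, other regions as dots and the 10 that passed the test ringed. The line and band are the median and the 10th to 90th percentiles of all regions in steps of 0.5 log2 CPM. All 23 regions at 5 log2 CPM or more lay above 0.

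Among genes for sterol and phospholipid export, 7 promoter regions served 8 genes, and 5 of the 7 were above 0 (median 0.19, range -1.13 to 0.31). None of the 7 passed the edgeR test or DESeq2's, and 2 were higher and 1 lower at an unadjusted p under 0.05. Of protein-coding genes 27.3% were higher at that p by edgeR and 11.9% were called more accessible by DESeq2. The same shares stand beside such counts for the other roles below. The region with the most counts lay over the starts of Abcg5 and Abcg8 (chr17:84682201-84684431), whose products form the sterol pump of the hepatocyte's bile face. It held 55.1, 65.4 and 61.2 CPM in young and 63.9, 70.0, 86.1 and 80.8 CPM in aged replicates 1 to 4. The groups overlapped by 1 aged sample, and the log2 fold change was 0.31 ± 0.13 (SE, n = 3 and 4, adjusted p = 0.149 by edgeR). The genes are transcribed away from each other, and their RefSeq starts leave 109 bases between them, chr17:84683012-84683120 (GRCm38), which also lie in an intron of a longer Abcg8 transcript. This stretch is shown because 1 region serves both genes; it is on the plus strand, and the capitals mark the only match to TATAAA (here on the minus strand).
Abcg5-Abcg8 between: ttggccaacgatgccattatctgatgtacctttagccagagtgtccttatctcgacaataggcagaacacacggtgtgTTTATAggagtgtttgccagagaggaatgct

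Abca1, which loads cholesterol and phospholipid onto apolipoprotein A-I, held 20 regions, the most of any member. Its promoter (chr4:53158517-53160261) held 53.6, 49.97 and 54.6 CPM in young and 64.2, 67.9, 56.5 and 62.2 CPM in aged samples. Every aged sample was above every young one, with a log2 fold change of 0.25 ± 0.11 (SE) that missed the threshold (edgeR adjusted p = 0.163). The 250 bases before the RefSeq start (GRCm38 chr4:53159896-53160145, minus strand) are shown because this promoter held 3 of the 5 short motifs searched; capitals mark a TATA box (TATAAA), GC boxes (GGGCGG) and an E-box (CACGTG).
Abca1 upstream: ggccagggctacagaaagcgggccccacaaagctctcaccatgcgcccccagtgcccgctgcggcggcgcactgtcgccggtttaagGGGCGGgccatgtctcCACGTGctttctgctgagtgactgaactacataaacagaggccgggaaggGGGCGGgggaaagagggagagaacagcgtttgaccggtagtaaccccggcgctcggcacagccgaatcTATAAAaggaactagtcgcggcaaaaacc

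Along Abca1 9 of the 20 regions were above 0 and 11 below, from -0.54 to 0.42, and none passed the test (smallest adjusted p = 0.0835). The highest value belonged to a region over an annotated 5' UTR exon (chr4:53143234-53144865), with 33.4, 36.2 and 38.1 CPM in young and 55.3, 52.0, 47.4 and 37.2 CPM in aged samples. Here aged replicate 4 lay among the young samples, and without it the adjusted p was 0.0202 (0.0202 to 0.462 over 12 alternatives, with GC offsets at 0.0317 and the replicate block at 0.0273 also past the threshold). The lowest value belonged to a coding exon region (chr4:53072686-53074154) at 18.1, 13.5 and 16.9 CPM in young and 10.5, 8.24, 11.2 and 13.7 CPM in aged samples (log2 fold change -0.54 ± 0.20, adjusted p = 0.109).

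Abcg1, which moves sterol out of macrophages and other cells, was below 0 at all 6 of its regions, from -0.78 to -0.24, and none passed the test. At its promoter (chr17:31057589-31059017) the young samples held 15.6, 11.9 and 10.7 CPM and the aged samples 6.59, 5.88, 10.04 and 12.7 CPM, so that aged replicate 4 lay inside the young range. Its log2 fold change was -0.54 ± 0.26 (edgeR adjusted p = 0.212, and 0.0489 to 0.556 over 12 alternatives). The intron region with the lowest value (chr17:31060479-31060982) read 3.80, 3.93 and 4.11 CPM in young and 1.41, 1.37, 2.10 and 4.20 CPM in aged samples, and aged replicate 4 was again the exception. Its log2 fold change was -0.78 (adjusted p = 0.207), or -1.31 without that sample (adjusted p = 0.0253) and -1.32 with the replicate block (adjusted p = 0.0351). Without aged replicate 4 the test called 2 of the 6 Abcg1 regions less accessible, and with the replicate block 3. No other alternative called any of the 6. Both of these settings also called more ABC regions in all, 15 and 16, beside 10 in the main test. Abcg4, a related sterol transporter known mainly from brain, had the lowest log2 fold change of any ABC promoter (chr9:44288045-44288552), with 4.91, 5.63 and 3.29 CPM in young and 1.41, 1.77, 2.10 and 3.44 CPM in aged samples. That difference of -1.13 ± 0.34 missed the threshold (adjusted p = 0.0617), and passed it under 4 of 12 alternatives: without aged replicate 4 (0.0164), with the replicate block (0.0234), with GC offsets (0.0378) and with total counts (0.0387). With offsets by mean level the adjusted p was 0.261, the highest of the 12. Abca2, Abca3 and Abca7 lay at 0.19, 0.24 and 0.03.

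Within Abcg5 a single intron region (chr17:84666676-84667575, 15.9 kb into the gene) was less accessible in aged liver. It held 7.03, 7.67 and 4.44 CPM in young and 1.76, 2.16, 1.87 and 2.29 CPM in aged samples, on 306 and 57 counts in all. The lowest young sample lay above the highest aged one, the log2 fold change was -1.70 ± 0.28 (SE), and the edgeR adjusted p was 0.00986. Over 12 alternatives the adjusted p ran from 0.00052 to 0.0538, and it missed the threshold without young replicate 1 or 2. All of the region's 900 bases are soft-masked as repeat in the reference. Its middle 150 bases (chr17:84667050-84667199, plus strand, GRCm38) are shown for that reason: 147 of them are G or T, and the capitals mark the longest unbroken alternation of the pair, 21 bases.
Abcg5 intron region, centre: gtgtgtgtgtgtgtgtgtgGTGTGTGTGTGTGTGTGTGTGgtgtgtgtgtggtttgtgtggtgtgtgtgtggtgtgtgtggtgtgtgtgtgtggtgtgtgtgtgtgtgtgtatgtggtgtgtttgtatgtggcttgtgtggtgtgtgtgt

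The intron region of Abcg8 at chr17:84688894-84690416 held 41.4, 44.2 and 45.9 CPM in young and 46.5, 57.9, 60.7 and 54.5 CPM in aged samples. All 4 aged samples were above the young ones, with a log2 fold change of 0.32 ± 0.12 that did not pass the test (adjusted p = 0.118).

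The Abca genes that lie side by side on chromosome 11 code for lipid transporters of which little is known in liver, and they held 24 regions. Promoter regions of 4 of the 5 genes were above 0 with no overlap between ages (median 0.30 over the 5), beside 24.0% of protein-coding genes, and 1 passed the test, beside 5.02%. That was Abca8b (chr11:109993997-109996063), with 30.2, 35.2 and 39.3 CPM in young and 52.0, 44.5, 47.9 and 49.4 CPM in aged samples, or 34.9 ± 4.57 and 48.4 ± 3.13 CPM (mean ± SD). Its log2 fold change was 0.48 ± 0.12 (SE), a 1.40-fold rise (edgeR adjusted p = 0.0365). Scaling by total counts gave an adjusted p of 0.0852 and scaling by mean level 0.249, the highest of 12 alternatives that began at 0.0097, and the call was also lost without young replicate 1 or 2 or aged replicate 1 or 3 (0.0914 to 0.150). Summing a pair of aged samples as if from 1 animal lost it for 4 of the 6 pairs (0.0521 to 0.0836), and a minimum of 10 counts in every sample gave 0.0615. The 250 bases before its RefSeq start (GRCm38 chr11:109995846-109996095, minus strand) are shown because this was 1 of the 2 promoters that rose. The capitals mark its only motif of those searched, GGGCGG on the other strand.
Abca8b upstream: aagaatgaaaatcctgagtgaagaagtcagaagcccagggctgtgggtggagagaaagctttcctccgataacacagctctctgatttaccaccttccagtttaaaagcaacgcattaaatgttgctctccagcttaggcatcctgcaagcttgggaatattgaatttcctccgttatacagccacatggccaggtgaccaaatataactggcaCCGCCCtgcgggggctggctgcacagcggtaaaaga

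The rest of Abca8b and its neighbours gave the following values. An Abca8b intron region (chr11:109986368-109988739) held 24.6, 21.2 and 26.3 CPM in young and 31.5, 28.6, 30.1 and 34.7 CPM in aged samples (log2 fold change 0.39 ± 0.13, adjusted p = 0.0901). The Abca6 promoter (chr11:110251391-110252737) held 22.8, 21.5 and 20.9 CPM in young and 26.5, 30.2, 28.7 and 29.7 CPM in aged samples (0.40 ± 0.13, adjusted p = 0.0727), and the Abca5 promoter (chr11:110336909-110338331) 29.0, 29.1 and 34.4 CPM and 35.3, 35.5, 36.7 and 38.1 CPM (0.25 ± 0.12, adjusted p = 0.215). All 3 regions had every aged sample above every young one and missed the threshold. In Abca8a 7 of 8 regions were above 0, the highest a coding exon region (chr11:110037449-110038499) with 9.72, 11.6 and 9.70 CPM in young and 20.9, 14.3, 13.1 and 15.5 CPM in aged samples. At 0.63 ± 0.19 this was the largest log2 fold change above 0 among all ABC regions (adjusted p = 0.0678 by edgeR and 0.0354 by DESeq2). Abca9 lay at -0.31 at its promoter, with the ages overlapping.

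Abca6 also held the 1 region of this cluster that fell. In the intron at chr11:110216901-110217339, 34.7 kb into the gene, the young samples held 3.24, 3.59 and 2.14 CPM and the aged samples 1.32, 1.18, 1.17 and 1.53 CPM. The log2 fold change of -1.22 ± 0.33 was close to the threshold (adjusted p = 0.0432 by edgeR and 0.0757 by DESeq2, up to 0.265 over 12 alternatives). Of its 439 bases 60.6% are soft-masked as repeat, and leaving out young replicate 1 or 2 or aged replicate 1, 2 or 3 lost the call (adjusted p = 0.065 to 0.186), as did summing 4 of the 6 pairs of aged samples (0.0604 to 0.0863). The call was also lost with the replicate block and with offsets by mean level (0.265).

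Drug and conjugate efflux genes held 41 regions, 3 of which passed the test, all lower in aged liver, beside 3.3% of all regions called lower. Of their 9 promoter regions 5 were above 0, with a median of 0.10 and a range of -0.39 to 0.25; edgeR and DESeq2 each called 0 of the 9, and 0 reached an unadjusted p under 0.05. Abcc6, a hepatocyte transporter behind the release of ATP into blood, had the ABC promoter region with the most counts of all (chr7:46028700-46030877); per length it came to 51.5 CPM per kb. It held 106, 95.5 and 109.8 CPM in young and 117, 121, 118 and 117 CPM in aged samples, which differed by 0.19 ± 0.10 on the log2 scale (adjusted p = 0.266). Abcc3, a basolateral exporter of bile salt and drug conjugates, was spread widely within ages (chr11:94389034-94393123), with 38.8, 61.8 and 60.3 CPM in young and 51.9, 69.8, 72.4 and 62.2 CPM in aged samples. Its log2 fold change was 0.25 ± 0.16 (adjusted p = 0.371). Abcc1, the drug and glutathione conjugate exporter of most tissues, read 7.41, 7.07 and 7.89 CPM in young and 5.18, 4.31, 6.30 and 6.87 CPM in aged samples at its promoter (chr16:14361081-14361985, -0.39 ± 0.23, adjusted p = 0.314). Abcc4, a basolateral exporter of bile salts and nucleotides, overlapped between ages (chr14:118705832-118706838), with 13.0, 15.4 and 12.8 CPM and 10.6, 13.9, 10.5 and 11.3 CPM.

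A second start-site region of Abcc6 fell. It lies near the end of the gene, 56.8 kb from its first base (chr7:45972231-45974680), over the start of a short processed transcript, and it also covers the start of the pseudogene Gm45674, so the counts cannot be given to either. The young samples held 37.3, 39.3 and 40.4 CPM and the aged samples 23.6, 22.0, 27.3 and 22.7 CPM, or 39.0 ± 1.59 and 23.9 ± 2.38 CPM (mean ± SD). Every aged sample was well below the young ones, and the log2 fold change was -0.71 ± 0.12 (SE, edgeR adjusted p = 0.0110). With 1689 young and 676 aged counts this was the deepest of the 8 regions that fell. Its adjusted p was 0.009 when libraries were scaled by mean level and at most 0.0509, without young replicate 1, over 12 alternatives. A further coding exon and an intron region of Abcc6 lay at -0.47 and -0.43 with no call.

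Abcg2, which exports urate, porphyrins and many drugs, was below 0 at 6 of its 7 regions, and 2 intron regions nearer its 5' end passed the test. The stronger call (chr6:58594139-58594661, 9.88 kb into the gene) rested on few counts, 48, 70 and 7 in the young samples and 2, 0, 1 and 3 in the aged samples. In CPM these were 4.44, 2.65 and 1.15 in young and 0.176, 0, 0.233 and 0.382 in aged samples, so that the ages did not overlap although the young samples differed among themselves. Scaled for library size the young samples together held 13.8 times the aged count, with a 95% exact interval of 6.15 to 38.2 that covers counting error only (edgeR adjusted p = 0.00987). All 12 alternatives kept the call, with adjusted p from 0.00078 to 0.0497, but a minimum of 10 counts in every sample leaves this region out, as it does the called introns of Abcg5 and Abca6 and the other called intron of Abcg2. The region has a near-identical copy on the same chromosome (chr6:67683263-67683769, minus strand), which covers 98.3% of it at 95.3% identity, and the part that reads from the copy have in these counts, after the authors' filter on mapping quality, was not tested. Its middle 150 bases (chr6:58594325-58594474, plus strand) are shown for that reason, with the 8 bases that are not the same in the copy in capitals.
Abcg2 intron region, centre: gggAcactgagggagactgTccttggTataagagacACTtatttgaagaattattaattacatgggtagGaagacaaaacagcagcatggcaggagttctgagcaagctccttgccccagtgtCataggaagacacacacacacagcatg

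The other intron region of Abcg2 (chr6:58603538-58604169, 19.3 kb into the gene) had no such copy. It read 4.91, 4.95 and 3.95 CPM in young and 1.49, 2.16, 1.17 and 1.78 CPM in aged samples, with no overlap, and the log2 fold change was -1.49 ± 0.29 (adjusted p = 0.0150). The call was lost when libraries were scaled by mean level (adjusted p = 0.0679) and without young replicate 1 or 2 or aged replicate 1 or 3 (0.0523 to 0.075). The Abcg2 region with the most counts, over a start site 56.0 kb from the gene's first base, lay at 0.12 (adjusted p = 0.667) with the ages overlapping.

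**Figure D4:**
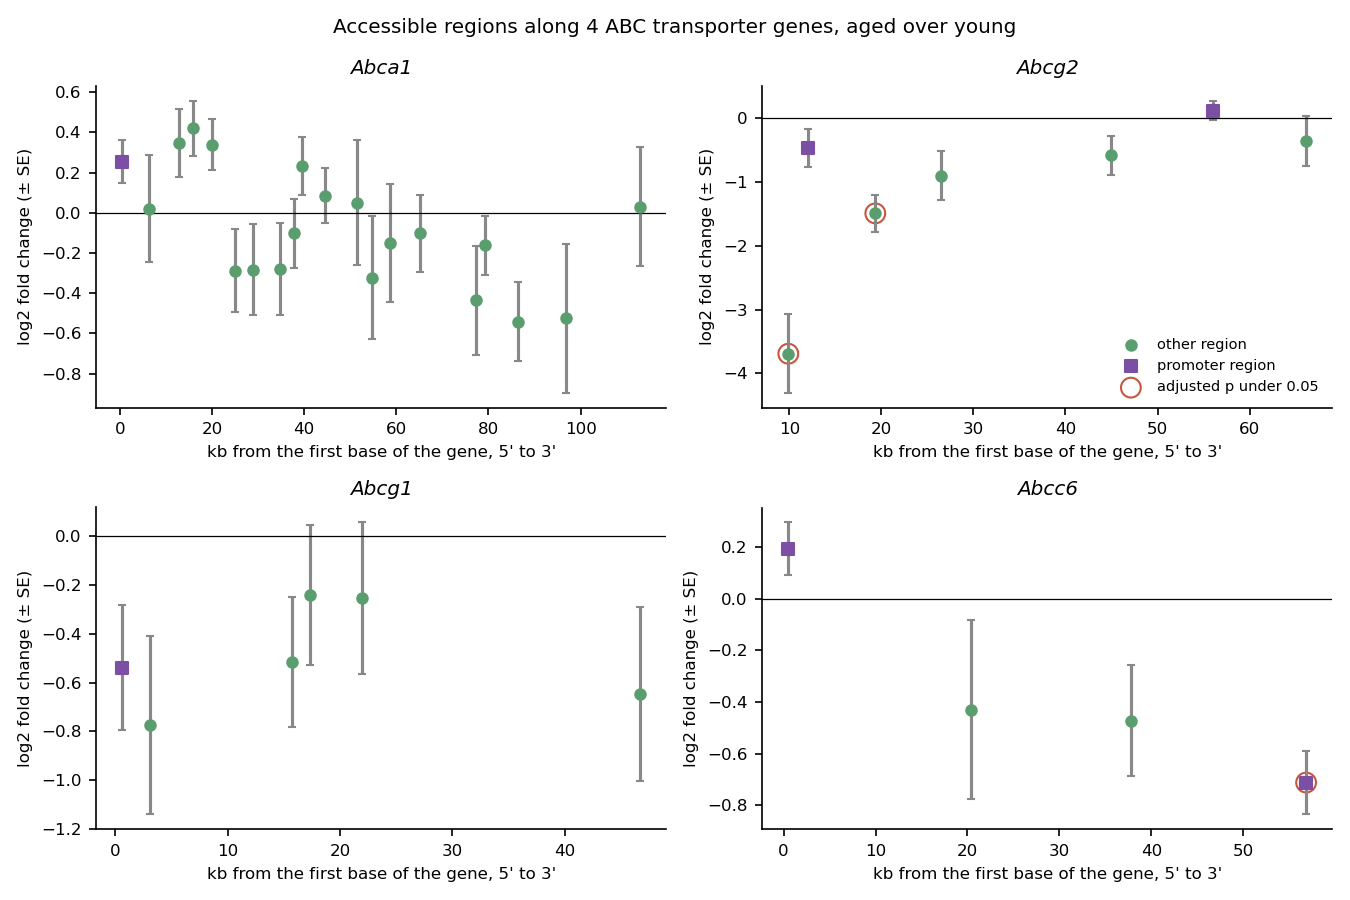
Log2 fold change of aged over young with its SE (vertical) for each accessible region along Abca1, Abcg2, Abcg1 and Abcc6, against distance in kb from the first base of the gene in the direction of transcription (horizontal). Squares are promoter regions, dots are other regions and rings mark an adjusted p under 0.05. Abca1 had regions on both sides of zero, Abcg1 had all 6 below it, and Abcg2 and Abcc6 had 2 and 1 that passed the test.

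The B subfamily genes of mitochondria and lysosomes were above 0 at all 5 promoter regions, from 0.13 to 0.48, and 1 passed the test, beside 5.02% of protein-coding genes. Abcb8, an inner mitochondrial membrane protein, held 76.6, 69.7 and 67.4 CPM in young and 103, 86.9, 98.1 and 108 CPM in aged samples at its only region (chr5:24393548-24394908). The means were 71.2 ± 4.81 and 99.1 ± 9.12 CPM (SD), all aged samples lay above all young ones, and the log2 fold change was 0.48 ± 0.11, a 1.39-fold rise (edgeR adjusted p = 0.0286). Per length this promoter was among the most open of the family, at 64.0 CPM per kb over the 7 samples, next to Abcb9 at 70.3 CPM per kb. The call was lost with libraries scaled by mean level (adjusted p = 0.357, 0.0036 to 0.357 over 12 alternatives) and without any 1 of the young samples or aged replicate 1 or 3 (0.0509 to 0.106), and with the replicate block (0.0577). It was also lost with aged replicates 1 and 3 summed (0.0711) or 3 and 4 summed (0.0507), and with a minimum of 10 counts in every sample (0.0571).

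Abcb9, a lysosomal peptide transporter, had its promoter above zero and the 2 intron regions described here below it. At the promoter (chr5:124095179-124096283) the young samples held 78.0, 70.3 and 57.4 CPM and the aged samples 87.2, 81.4, 80.1 and 89.5 CPM (log2 fold change 0.30 ± 0.12, adjusted p = 0.142). An intron region 19.0 kb into the gene (chr5:124076465-124077041) fell from 9.16, 7.97 and 7.89 CPM to 2.99, 4.12, 2.33 and 3.31 CPM, or from 8.34 ± 0.711 to 3.19 ± 0.742 CPM (mean ± SD). The gap between ages was wider than the spread within them, and the log2 fold change was -1.38 ± 0.24 (adjusted p = 0.0112). Only leaving out young replicate 1 lost the call among 12 alternatives (adjusted p = 0.064). A second intron region (chr5:124083993-124085303) held 17.7, 17.9 and 17.4 CPM in young and 13.9, 14.5, 12.6 and 9.16 CPM in aged samples, again without overlap but without a call (-0.50 ± 0.18, adjusted p = 0.104). Abcb6 and Abcb10, which serve porphyrin and heme handling, lay at 0.21 and 0.17 at their promoters.

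Peroxisomal and lysosomal D subfamily genes held 14 regions, none of which passed the test; 1 of the 4 promoters was above 0 at an unadjusted p under 0.05, and DESeq2 called 0 of the 4. Abcd3, a carrier of branched and long-chain fatty acids abundant in liver peroxisomes, had 46.0, 47.2 and 41.8 CPM in young and 53.7, 57.1, 55.8 and 57.1 CPM in aged samples at its promoter (chr3:121814070-121815708). The ages did not overlap, at 0.31 ± 0.11 (adjusted p = 0.0924). An Abcd3 intron region (chr3:121770393-121771233) held 10.5, 9.68 and 9.54 CPM in young and 5.27, 7.45, 5.60 and 3.05 CPM in aged samples, without overlap, and just missed the threshold (-0.92 ± 0.26, adjusted p = 0.0510 by edgeR and 0.0281 by DESeq2).

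The ribosome-associated Abce1 and Abcf genes had 4 promoter regions, all above 0 and none past the test by edgeR or DESeq2 (1 at an unadjusted p under 0.05). Abcf2 had 60.7, 57.9 and 42.6 CPM in young and 75.7, 61.2, 65.6 and 74.3 CPM in aged samples (chr5:24576955-24578142, 0.36 ± 0.13, adjusted p = 0.118). Abcf1 at chr17:35969325-35970514 differed by 0.09 ± 0.11 and Abcf3 at chr16:20547457-20549102 by 0.22 ± 0.12, with the ages overlapping at both. The region downstream of Abcf3 (chr16:20562956-20563819) fell from 6.39, 5.22 and 6.74 CPM to 3.87, 1.96, 2.80 and 2.42 CPM (-1.08 ± 0.28, adjusted p = 0.0388). That call was lost on leaving out any 1 of the 7 samples (adjusted p = 0.0514 to 0.127), with offsets by mean level (0.171), and on summing 3 of the 6 pairs of aged samples (0.0592 to 0.0709).

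Of the sulfonylurea receptors, which are subunits of ATP-sensitive potassium channels, Abcc8 had no region and Abcc9 had 2, neither at a start site. The Abcc9 intron region (chr6:142667733-142668746, 34.1 kb into the gene) held 13.2, 18.1 and 11.5 CPM in young and 7.82, 6.47, 5.84 and 6.24 CPM in aged samples. The lowest young sample exceeded the highest aged one, and the log2 fold change was -1.12 ± 0.21 (adjusted p = 0.0135, with 0.0011 to 0.0779 over 12 alternatives). Without young replicate 1 or 2 the call was lost. The other region lies over a coding exon and over the start of 5330439B14Rik (chr6:142613922-142614799), with 6.48, 9.18 and 7.56 CPM in young and 3.60, 4.71, 3.97 and 5.85 CPM in aged samples (-0.79 ± 0.25, adjusted p = 0.0725). Of the stellate cell markers given above, Reln was lower in the same aged samples and Lrat overlapped between ages, and their part was not tested.

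Genes known mainly from other tissues were open at few places: 3 of these 8 genes held 11 regions, and edgeR called none; of the 3 promoters among them, 0 were called by DESeq2 and 0 reached an unadjusted p under 0.05. Abca4, the retinal transporter, had a promoter region (chr3:122071881-122074938) at 18.3 CPM per kb over the 7 samples, with 52.5, 42.1 and 68.1 CPM in young and 43.8, 55.3, 50.4 and 79.0 CPM in aged samples. Ages overlapped widely, and the sign of its 0.09 ± 0.19 turned under 5 of 12 alternatives. The region shared by Abca17 and Abca3 (chr17:24351088-24352753) held 35.3, 35.6 and 30.7 CPM in young and 47.3, 38.0, 38.8 and 36.0 CPM in aged samples (0.24 ± 0.13, adjusted p = 0.261).

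**Figure D5:**
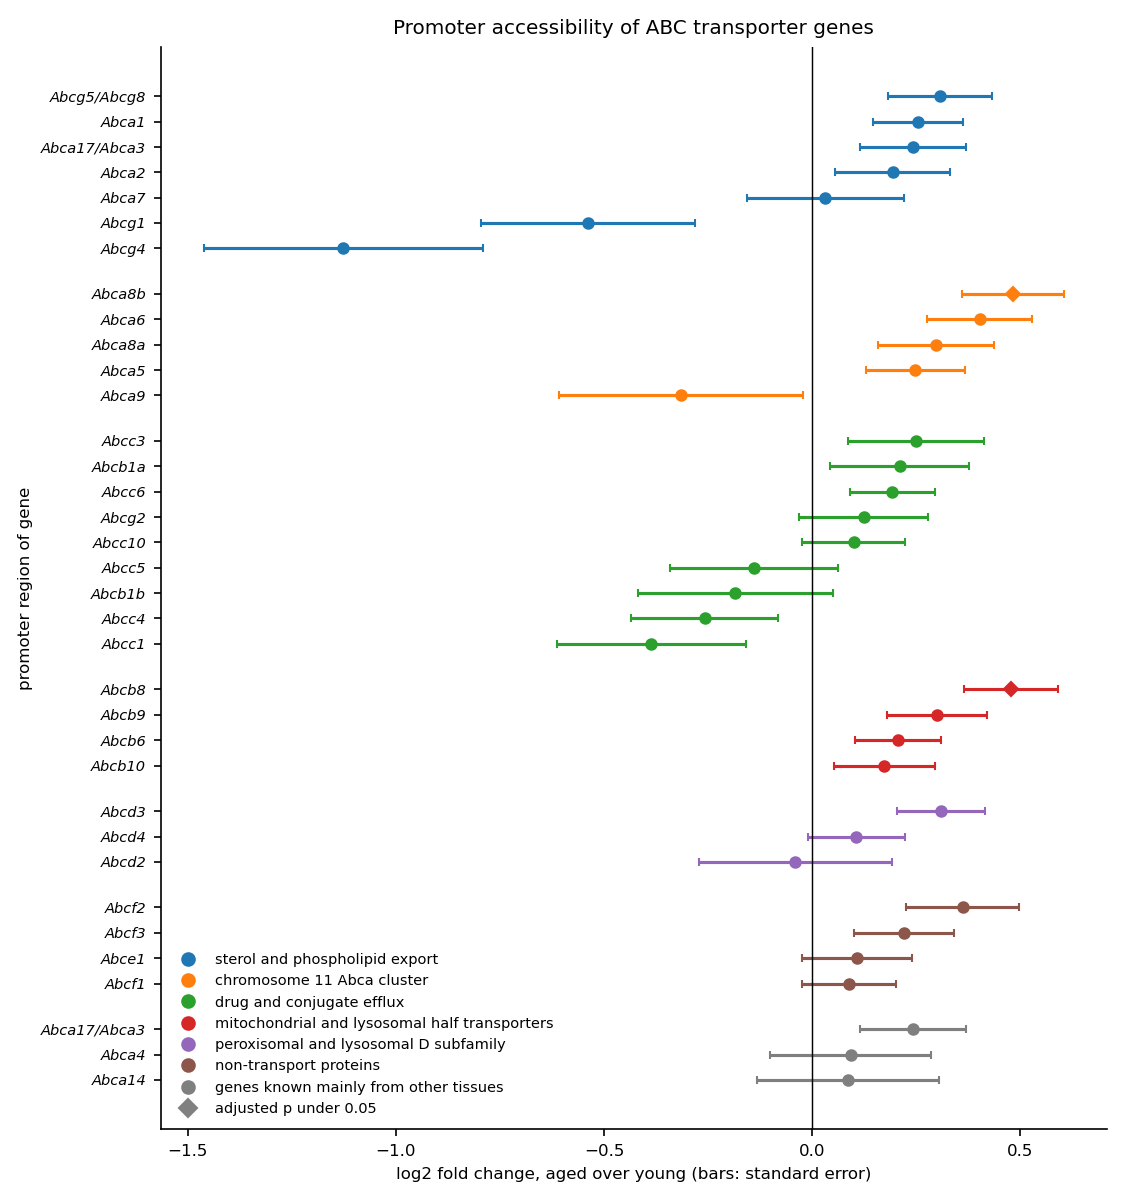
Log2 fold change of aged over young with its SE (horizontal) at the promoter regions of ABC genes, 1 row a gene or pair that shares a region, coloured by role; the shared region of Abca3 and Abca17 is drawn under both of its roles. Diamonds mark an adjusted p under 0.05, which Abca8b and Abcb8 reached. The plot draws 34 of the 36 regions, of which 26 lay above 0.

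By gene, 2 of 38 ABC genes with a promoter region had a more accessible one in aged liver (5.26%, beside 5.02% of 13037 protein-coding genes). DESeq2 also called 2 of the 38, beside 11.9% of protein-coding genes. None had a less accessible promoter region by edgeR, beside 1.49% of protein-coding genes at the same adjusted p, and none by DESeq2. At an unadjusted p under 0.05 by edgeR 1 was lower. These counts take the promoter region with the highest level of each gene, so the second start-site region of Abcc6, which fell, is not among them. Without overlap of the ages, 12 of the 36 regions lay above (33.3%, beside 24.0%) and 1 below (2.78%, beside 7.82%).

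Genes that work with the transporters were read in the same way, by their promoter regions, beside the 5.02% of protein-coding genes called more accessible, the 65.6% of promoter regions above 0 and the median of 0.12 given above. By DESeq2 11.9% of protein-coding genes were called more accessible, and 27.3% were higher at an unadjusted p under 0.05 by edgeR. Among family genes outside the rule (Cftr, Tap1, Tap2, Abcb4, Abcb11 and Abcc2), 5 of 6 had one and 1 rose, that of Abcb11, the canalicular bile salt pump (0.58 ± 0.12, adjusted p = 0.0203). The median over the 5 was 0.15, and Tap2, a subunit of the peptide transporter for antigen presentation, lay at -0.42 with every aged sample below every young one (adjusted p = 0.132). Of 7 uptake carriers on the sinusoidal face 1 rose, Slco2b1 (0.51 ± 0.11, adjusted p = 0.0225), and 3 lay below 0, with a median of 0.036 over the 7. All 10 nuclear receptors and other regulators of ABC genes lay above 0 (median 0.24, from 0.11 to 0.38); edgeR called none, DESeq2 called 1, and 5 reached an unadjusted p under 0.05. Of the 10, 9 had a mean of 5 log2 CPM or more, where the median over all regions was 0.25, so that this list lay near the value for its level. Of 7 sterol acceptors and peroxisomal partners all lay above 0 (median 0.31) and Apoa1, the lipoprotein acceptor served by Abca1, rose (0.53 ± 0.13, adjusted p = 0.0331); DESeq2 called 3 of the 7, 4 reached an unadjusted p under 0.05, and 6 had a mean of 5 log2 CPM or more.

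RefSeq promoter windows were at hand for 35 of the 47 genes (42 windows), among them those of Abca8b, Abca1, Abcg2, Abcg5 and Abcg8. Those of Abca6, Abcb8, Abcc1, Abcc3, Abcc6, Abcc8, Abcd2, Abcd4, Abcg1 and Abcg4 were among those missing. In the 250 bases upstream, on either strand, GGGCGG was in 45.2% of the ABC windows and 32.7% of 32851 windows genome-wide, TATAAA in 11.9% and 12.4%, CCAAT in 26.2% and 33.8%, CACGTG in 11.9% and 6.02%, and TGACGTCA in 4.76% and 1.55%. TATAAA was in the windows of Abca1, Abca4, Abcb6, Abcg5 and Abcg8, where the last pair of windows share 1 match, and TGACGTCA in those of Abce1 and Abcg2. The sterol-responsive DR4 element, searched as its perfect repeat, was in 0 of the 42 windows and 0.0152% of all. These motifs do not overlap one another in the sequences shown, and a match is a description of the letters only.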

How the data were processed

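Nuclei from pieces of liver tissue were profiled by Omni-ATAC with paired-end sequencing. Per the study's methods and the submitters' processing notes, the authors trimmed reads (cutadapt 1.13), aligned them to GRCm38 (Bowtie2 2.4.1), kept proper pairs above a minimum mapping quality, dropped PCR duplicates and mitochondrial reads, called peaks (MACS2 2.2.7) and counted reads per merged region with featureCounts; the raw counts per region are what they deposited, with all 7 columns used. Region coordinates were read as 1-based. Whether counted reads were shifted for the Tn5 cut is not given in the sources used here.

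Counts were tested as aged against young over all 55680 regions with edgeR 4.0.16 (R 4.3.3; TMM scaling, quasi-likelihood test, no count filter, no covariate, adjusted p under 0.05); the study used DESeq2, run here as an alternative (DESeq2 1.42.0). The labels name no batch. CPM are TMM-scaled, and log2 CPM carry a prior count of 2. On simulated data with 200 changed regions among 55680, 96.5% were recovered and 3.5% of calls were false. How the test does at the counts and log2 fold changes of the regions named above was not tested. Same-age samples were checked for duplicates (chi-square per degree of freedom 2.47 to 6.10), and none were found. Copies were places elsewhere in GRCm38.p6 with at least 80% coverage and 95% identity (minimap2 2.31). Where the text cites alternatives for a region they are 12: DESeq2, total counts, offsets by mean level or GC content, a replicate block, and each of the 7 samples left out.

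Members and lists were chosen with earlier results of these data known. Named regions were all members past the threshold with no overlap of ages, and in each role the promoters with the highest level or the largest change, apart from items not reported here; regions of Abca1, Abca8a, Abca8b, Abcb9, Abcc9, Abcd3, Abcg1 and Abcg8 beyond these, and single values given in passing, were chosen after their values were seen. Replicates are the samples the labels list as separate.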

Additional observations from a re-analysis of the deposited data

How the results depend on the processing

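Test results were 2 ABC regions more and 8 less accessible, and 2 genes with a more and 0 with a less accessible promoter region. DESeq2 gave 3, 8, 2 and 0, and it shared 9 of the 10 regions. Its 2 genes, of 38 with a promoter region, stand beside 11.9% of protein-coding genes called more accessible by DESeq2. Total counts gave 1, 11, 1 and 1; GC offsets 7, 9, 4 and 1; offsets by mean level 0, 5, 0 and 0; an adjusted p under 0.01 gave 0, 2, 0 and 0. A minimum of 10 counts in every sample gave 0, 4, 0 and 0 and kept 136 of 154 ABC regions; it left out 4 regions that fell, and the 2 promoters that rose were kept but missed the threshold. Leaving out 1 sample gave 0 to 3, 1 to 12, 0 to 2 and 0 to 1. The lowest counts came without young replicate 1 (0 more, 1 less), then young replicate 2 (0, 3) and aged replicates 1 and 3 (0, 5 each); without young replicate 3 there were 1 and 8, and without aged replicate 4 there were 3 and 12. Summing aged samples, since 2 of them share an animal, gave 0 regions and 0 genes more for replicates 1 and 3 or 3 and 4, 1 and 1 for 2 and 3, 1 gene more and 1 less for 1 and 4, and 1 gene less for 2 and 4. Wider or narrower gene and promoter windows changed no count by over 1.5 times. The cause of these shifts was not tested.

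Same-numbered samples had deviations that correlated at -0.12 to 0.06, against -0.15 to 0.23 for other numbers. The labels do not say that numbers pair samples across ages. With so few same-numbered pairs this check cannot show whether such samples were handled together. The replicate block called 2 regions more and 14 less, and 1 gene more and 2 less, by promoter.

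The sign turned at the promoters of Abcc6 (-0.15), Abcf1 (-0.13) and Abca4 (-0.15) with offsets by mean level, of Abcf1 (-0.029) and Abca4 (-0.032) with total counts, and of Abca4 with the replicate block (-0.094), without young replicate 2 (-0.070) and without aged replicate 4; leaving out 1 sample gave Abca4 -0.11 to 0.29. No region past the threshold turned.

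With total counts the log2 fold change had a median of -0.15 over all regions, against -0.04 here, with ABC promoters at 0.06 and other ABC regions at -0.27; offsets by mean level gave 0.01 for all regions. More accessible regions were 42.5% of all calls here, 15.6% with total counts, 58.8% with DESeq2, 64.0% with GC offsets and 37.7% with offsets by mean level. The 8 ABC regions that fell had 6 to 676 aged counts in all, and the part that depth had in these values was not tested.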
